A study of Mus musculus with 2 samples.

Results

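The Mir130/Mir301 and Mir148/Mir152 families are 7 of the 2202 microRNA genes counted in the hippocampus of 14-day-old female mice. They were found by the GENCODE M21 symbols Mir130a, Mir130b, Mir301 and Mir301b for the first family and Mir148a, Mir148b and Mir152 for the second, and all 7 symbols matched 1 row in each table. The families were chosen by the ratio of counts between the 2 libraries, which was large for 1 gene of each, Mir301 and Mir148a, so every ratio between the libraries below is a description without a test. The only group is B6CASTF1/J, the first-generation cross of C57BL/6J and CAST/EiJ mice, and the labels name no treatment. It has 2 biological replicates of 1 library each, labelled with 3 females per replicate, and RNA below size 30 was sequenced. The tissue is labelled as a hippocampal layer that is not named further. With 1 library for each replicate, differences of the animals and of the library preparation cannot be told apart. In whole tissue, fewer cells of a type and less RNA per cell cannot be told apart.

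A microRNA is cut from a hairpin precursor as a short RNA that guides the Argonaute protein to messenger RNAs and lowers their translation or stability. Pairing is led by the seed, bases 2 to 8 of the mature RNA, so genes with the same seed are grouped as a family with largely shared predicted targets. The miR-130 and miR-301 microRNAs are known for dampening genes of the TGF-beta pathway, and Mir130a is also known from endothelium. The miR-148 and miR-152 microRNAs are known for targeting the DNA methyltransferase Dnmt1, and Mir148a is abundant in liver and other peripheral tissues.

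The mature 3p products are printed because the seed defines the families and the bases after it set the members apart. The sequences are from RefSeq on GRCm38.p6, capitals mark the seed, and 6 of the 7 genes have a 3p product in that table.
miR-130a-3p: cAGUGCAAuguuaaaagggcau
miR-130b-3p: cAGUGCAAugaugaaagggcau
miR-301a-3p: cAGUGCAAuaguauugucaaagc
miR-148a-3p: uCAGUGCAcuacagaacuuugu
miR-148b-3p: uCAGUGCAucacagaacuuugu
miR-152-3p: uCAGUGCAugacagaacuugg

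The precursor of Mir301b is printed whole, with the heptamer of its family in capitals at bases 56 to 62 of 97. It holds this heptamer 1 time.
Mir301b hairpin: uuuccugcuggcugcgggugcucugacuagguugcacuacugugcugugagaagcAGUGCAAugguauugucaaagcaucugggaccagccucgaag

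The seeds of the families overlap by 6 bases, shifted by 1 position. The heptamer that is the seed of the Mir148/Mir152 family also forms bases 1 to 7 of the miR-130a, miR-130b and miR-301a 3p products, so every pair across the families shares a run of 7 bases and none shares a longer one. Of 1738 mature mouse microRNAs in the RefSeq table, 17 (0.978%) hold the heptamer CAGUGCA on their own strand, 7 of them from base 1, 3 from base 2 and 7 further in. Within a family the mature RNAs are close. Compared base by base from the 5′ end, miR-148a-3p and miR-148b-3p differ at 2 of 22 positions, miR-148b-3p and miR-152-3p at 2 of 21, and miR-130a-3p and miR-130b-3p at 2 of 22. The miR-301a-3p sequence departs from both miR-130 products at base 10 and differs from miR-130a-3p at 10 of 22 positions.

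Reads that map to several places stayed outside the gene counts, so a product shared between genes would lose counts. The longest run of bases that a member's precursor shares with any other annotated microRNA gene was 17, between Mir130a and Mir6389, and 12 to 16 for the other 6 members. Each of the 6 tabulated 3p products was found in 1 of the 2202 annotated microRNA genes. Other copies in the genome were not examined. A count is for the whole precursor, so 5p and 3p products were not separated. The 5p products of the Mir301 pair, which also share a seed, show how alike the other arm is.
miR-301a-5p: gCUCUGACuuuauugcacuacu
miR-301b-5p: gCUCUGACuagguugcacuacu

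Most members lie in introns and on the strand of the surrounding gene. In GRCm38, Mir130a (ENSMUSG00000065484.1) lies at chromosome 2, 84741115 to 84741178, minus strand, and overlaps no other M21 gene. Mir301 (ENSMUSG00000065589.1) lies at chromosome 11, 87113004 to 87113089, plus strand, in an intron of Ska2, which encodes a subunit of a spindle and kinetochore complex. Mir130b (ENSMUSG00000065572.1), at chromosome 16, 17124061 to 17124142, and Mir301b (ENSMUSG00000076288.1), at 17124400 to 17124496, share an intron of 2610318N02Rik on the minus strand, 257 bases apart. No other microRNA gene lies within 10 kb of a member. Mir148b (ENSMUSG00000065560.1), at chromosome 15, 103285125 to 103285221, plus strand, and Mir152 (ENSMUSG00000065515.1), at chromosome 11, 96850393 to 96850465, plus strand, lie in introns of Copz1 and Copz2, paralogous genes that encode the zeta subunit of the COPI vesicle coat. Mir148a (ENSMUSG00000065505.1), at chromosome 6, 51269812 to 51269910, minus strand, overlaps no other M21 gene, and the nearest protein-coding gene, Nfe2l3, is 162759 bases away. Messenger RNAs of the host genes were not measured here.

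Replicate 1 had 4764797 counts in microRNA genes and replicate 2 had 2852269, from 13195465 and 7838361 reads. Levels are given in CPM, counts scaled to an equal total of microRNA counts per library, and are not divided by length because a read covers 1 mature product. Intervals in the text are exact 95% intervals and cover only the error of counting reads. They leave out differences between animals and between library preparations. PCR copies of a molecule were not marked by identifiers, so the intervals can be too narrow for the counting of molecules. At 0 counts, the floor of 3 counts leaves room for 0.630 CPM in replicate 1 and 1.05 CPM in replicate 2.

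Mir130a was the dominant gene of both families. It had 27980 counts in replicate 1 and 11586 in replicate 2, or 5872 CPM (5804 to 5941) and 4062 CPM (3988 to 4137), a mean of 4967 ± 1280 (SD, n = 2). It ranked 40 of 2202 genes by mean level, at rank 35 in replicate 1 and rank 43 in replicate 2. Its level lay far above those of its relatives in both libraries.

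Mir301 had 4074 counts in replicate 1 and 230 in replicate 2, or 855 CPM (829 to 882) and 80.6 CPM (70.6 to 91.8). The first library was high and the second low, and the mean of 468 ± 548 (SD, n = 2) had an SD larger than itself. Its rank was 116 in replicate 1 and 220 in replicate 2.

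Mir130b had 678 and 272 counts, or 142 CPM (132 to 153) in replicate 1 and 95.4 CPM (84.4 to 107) in replicate 2, with a mean of 119 ± 33.2 (SD, n = 2). Its neighbour Mir301b had 34 and 3 counts, or 7.14 CPM (4.94 to 9.97) and 1.05 CPM (0.217 to 3.07), a mean of 4.09 ± 4.30. Mir301b was thus at the floor of 3 counts in replicate 2 and was the only member below 10 counts in a library. Within this pair of neighbours, Mir130b had 19.9 counts for each count of Mir301b in replicate 1 and 90.7 in replicate 2, the latter resting on 3 counts.

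Levels of the Mir148/Mir152 family were lower. Mir148a had 661 counts in replicate 1 and 66 in replicate 2, or 139 CPM (128 to 150) and 23.1 CPM (17.9 to 29.4), a mean of 80.9 ± 81.7 (SD, n = 2). Mir148b had 477 and 110 counts, or 100.1 CPM (91.3 to 110) and 38.6 CPM (31.7 to 46.5), a mean of 69.3 ± 43.5. Mir152 had 188 and 33 counts, or 39.5 CPM (34.0 to 45.5) and 11.6 CPM (7.96 to 16.2), a mean of 25.5 ± 19.7. All 3 were higher in replicate 1.

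**Figure D1:**
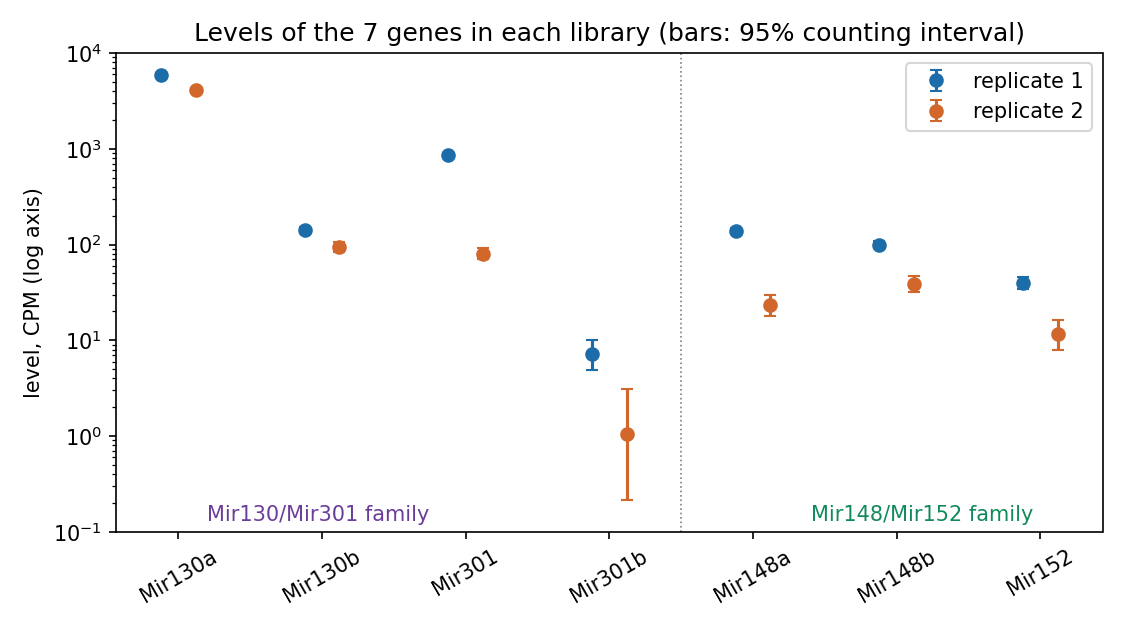
Level of each gene in CPM on a log axis, in replicate 1 (blue) and replicate 2 (orange), with bars for the 95% counting interval, which for several points is smaller than the symbol. Mir130a sits at 5872 and 4062 CPM, while Mir301 sits at 855 CPM in replicate 1 and 80.6 CPM in replicate 2.

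By mean level the order was Mir130a, Mir301, Mir130b, Mir148a, Mir148b, Mir152 and Mir301b. Mir130a stood above Mir301 in both libraries. Mir301 and Mir130b changed places, with 6.01 counts of Mir301 for each count of Mir130b in replicate 1 and 0.846 in replicate 2, where their counting intervals overlapped. Mir130b and Mir148a did not differ beyond counting error in replicate 1, with 1.03 counts of Mir130b for each of Mir148a, and stood 4.12 to 1 in replicate 2. Mir148a and Mir148b also changed places, at 1.39 to 1 in replicate 1 and 0.600 to 1 in replicate 2. Mir148b above Mir152 and Mir152 above Mir301b held in both libraries. By means and SDs over the libraries, only Mir130a stood clear of its neighbour in this order by more than the sum of both SDs.

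As a family, the Mir130/Mir301 genes held 0.688% (0.680 to 0.695) of the counts in replicate 1 and 0.424% (0.416 to 0.432) in replicate 2, a mean of 0.556% ± 0.187 (SD, n = 2). The Mir148/Mir152 genes held 0.0278% (0.0264 to 0.0294) and 0.00733% (0.00637 to 0.00839), a mean of 0.0176% ± 0.0145. Without Mir130a, the other 3 genes of the first family held 0.100% and 0.0177%. Both family shares were lower in replicate 2. Since Mir130a held most counts of its family, the family total followed that gene more closely than Mir301.

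The make-up of each family's counts also differed between the libraries, where a gene's share can rise while its level is lower. Mir301 made up 12.4% (12.1 to 12.8) of the Mir130/Mir301 counts in replicate 1 and 1.90% (1.67 to 2.16) in replicate 2. Mir130a made up 85.4% (85.0 to 85.8) and 95.8% (95.5 to 96.2). Mir130b had about the same share in both libraries, at 2.07% (1.92 to 2.23) and 2.25% (1.99 to 2.53), and its intervals overlapped. In the other family, Mir148a led in replicate 1 with 49.8% (47.1 to 52.6) and Mir148b led in replicate 2 with 52.6% (45.6 to 59.6). Mir152 had 14.2% (12.3 to 16.2) and 15.8% (11.1 to 21.5), again with overlapping intervals.

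**Figure D2:**
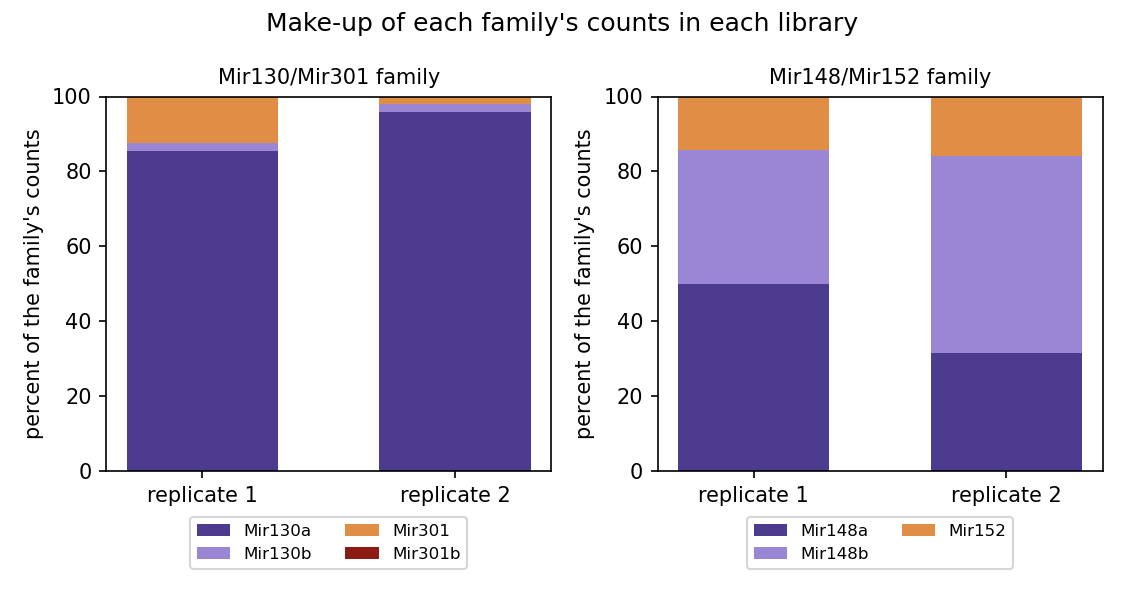
Percent of each family's counts that came from each gene, in replicate 1 and replicate 2, as stacked bars from 0 to 100%. Mir301 shrinks from 12.4% to 1.90% of its family, and Mir148a from 49.8% to 31.6%, while Mir301b is too small to be seen.

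The ratio between the libraries was below 1 for all 7 genes. Ratios are log2 of replicate 2 over replicate 1 after TMM scaling, a correction of the library sizes for differences in composition, over the 450 genes that had 20 or more counts in both libraries together, as all 7 members did. Mir301b did so only through its 34 counts in replicate 1. Of the 450 genes, 49.6% had a ratio below 0, 11.3% were more than 2-fold lower in replicate 2 and 10.7% more than 2-fold higher. These shares are the background only. Nothing is read from the members' counts against them, because the ratio was used to choose the families.

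Mir301 had a log2 ratio of -3.28 (-3.48 to -3.09), the fourth lowest of the 450 and 9.74-fold lower in replicate 2. Its closest relative by sequence, Mir301b, gave -2.64 (-4.99 to -0.97), a wide interval because replicate 2 had 3 counts. Mir130a gave -0.41 (-0.44 to -0.38) and Mir130b gave -0.46 (-0.66 to -0.25). The Mir301b interval reaches to within 2-fold.

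In the Mir148/Mir152 family all 3 genes were past 2-fold, although the Mir148b interval reaches to within 2-fold. Mir148a gave -2.46 (-2.85 to -2.10), Mir152 gave -1.65 (-2.23 to -1.11) and Mir148b gave -1.25 (-1.57 to -0.95).

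Over all 7 genes the median log2 ratio was -1.65, and 5 of the 7 were lower by more than 2-fold. These 5 include Mir301b, which passed the filter only through replicate 1. The median over all 450 tested genes was 0.01. Nothing is read from the gap between the medians, because the families were chosen by this ratio. The rule states no numeric threshold. Set against 2-fold, Mir148b at -1.25 lay just past it and Mir130b at -0.46 was the nearest member within it. Scaling by total counts shifted the ratios of all genes by -0.12. Under each of the 5 alternatives tried for the ratios, 5 members were past 2-fold, counted by the ratio without its interval. All alternatives used the same 2 libraries.

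**Figure D3:**
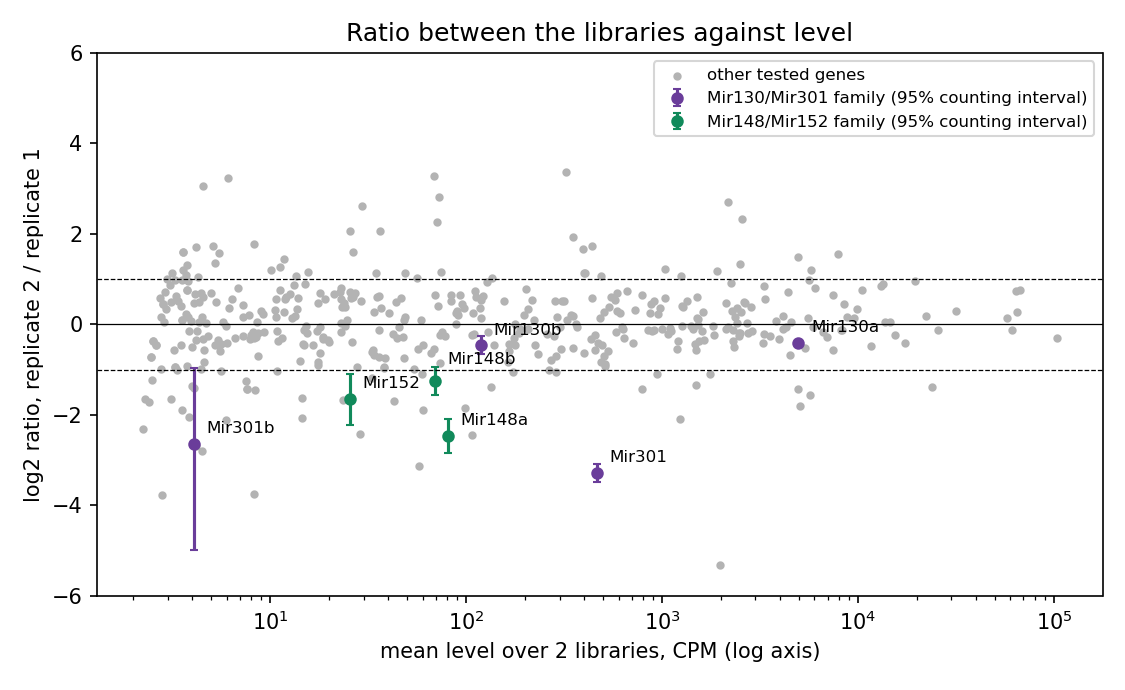
Log2 ratio of replicate 2 to replicate 1 against mean level in CPM (log axis) for 450 genes, with the Mir130/Mir301 genes in purple and the Mir148/Mir152 genes in green, bars for the 95% counting interval, and dashed lines at 2-fold. Mir301 at -3.28 lies below other genes of similar level, and its family was chosen by this ratio. A gene at a mean of 322 CPM lies about as far out on the upper side, at 3.37. Mir130a at -0.41 lies within the cloud.

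The same-seed relatives outside the 7 genes gave no counts. In the RefSeq table, 4 further genes have a mature product with the Mir130/Mir301 seed, Mir130c, Mir721, Mir6341 and Mir6389, and each had 0 counts in both libraries, which allows up to 0.630 CPM in replicate 1 and 1.05 CPM in replicate 2. No further gene in that table has the Mir148/Mir152 seed. Mir6389, which shares the longest run with Mir130a, is shown because its first 15 bases are those of miR-130a-3p.
miR-6389: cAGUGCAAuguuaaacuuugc

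The genes with the ratio most like each of the 5 members past 2-fold were found among the 273 genes whose mean count was 100 or more. Likeness here is the gap between log2 ratios and rests on 2 libraries only. Nearest to Mir301 were Mir1264 at -3.14, Mir148a at -2.46 and Mir448 at -2.44. Mir148a is itself a member, and its family was chosen by its ratio. Nearest to Mir148a were Mir448, Mir34b at -2.42 and Mir204 at -2.09, and nearest to Mir301b were Mir148a, Mir448 and Mir34b. Mir1264 and Mir448 lie in introns of the serotonin receptor gene Htr2c, Mir34b is abundant in ciliated cells and Mir204 in choroid plexus. For Mir148b the nearest were Mir24-2 at -1.19, Mir195a at -1.34 and Mir153 at -1.38. For Mir152 they were Mir10b at -1.67, Mir8112 at -1.71 and Mir26b at -1.57. None of the genes nearest to Mir148b or Mir152 is in the marker lists below.

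Markers of other cell types also differed between the libraries, and their part in the ratios of the 7 genes was not tested. Of the 7 choroid plexus and ciliated-cell genes, 4 reached 10 counts in each library and Mir449b had 0 in each, and the list summed to 3951 CPM in replicate 1 and 1189 CPM in replicate 2. It was led by Mir204, at 2027 and 439 CPM, and all 5 tested genes were lower in replicate 2, the median of their log2 ratios being -1.43. The 5 genes in Htr2c introns, led by Mir1298, summed to 4164 and 143 CPM, with a median of -2.80.

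The other lists went in different directions. The 6 microglia and immune-cell genes, led by Mir150, summed to 2469 and 1885 CPM, with all 6 lower in replicate 2 and a median of -0.46. The 3 genes of endothelium and smooth muscle, led by Mir126a, summed to 15962 and 20349 CPM and went opposite ways, with Mir126a at a log2 ratio of 0.88, Mir143 at -0.67 and Mir145a at -0.46. Red blood cell genes, led by Mir451a, summed to 290 and 722 CPM. The 10 genes of other epithelium, led by Mir429 by mean level, summed to 173 and 543 CPM. Both sums were higher in replicate 2, although 2 of the 3 red blood cell genes were lower there. In replicate 1 the epithelial list was led by Mir203, at 62.3 CPM, which was lower in replicate 2 with a log2 ratio of -0.74. Of the 9 tested epithelial genes, 7 were more than 2-fold higher in replicate 2 and none was more than 2-fold lower, with a median log2 ratio of 2.26. Over all 450 tested genes, 10.7% were more than 2-fold higher there and 11.3% more than 2-fold lower.

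Markers of the labelled tissue were present, with 10 of 13 neuronal and hippocampal genes at 10 or more counts in both libraries. They summed to 25722 CPM in replicate 1 and 26481 CPM in replicate 2, led by mean level by Mir132 at 6070 ± 1968 (SD, n = 2). In replicate 1, Mir128-1 led at 7405 CPM, above Mir132 at 4678 CPM. The genes of this list went both ways. Of the 10 tested, 4 were more than 2-fold higher in replicate 2, such as Mir138-2 at a log2 ratio of 1.33. Another 2 were more than 2-fold lower, Mir128-1 at -1.42 and Mir128-2 at -1.09. The shares over all 450 tested genes were 10.7% higher and 11.3% lower by more than 2-fold. Of the neuronal Mir124a copies, Mir124a-1 had 10 and 18 counts and the other copies at most 2 counts in a library. Reads that map to several places are left out of the gene counts, and their part in these low counts was not tested. The 3 oligodendrocyte genes, led by Mir219a-2, summed to 1928 CPM in replicate 1 and 3198 CPM in replicate 2. They did not all go the same way, with log2 ratios of 1.173 for Mir219a-2, 0.675 for Mir219a-1 and -0.049 for Mir338.

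**Figure D4:**
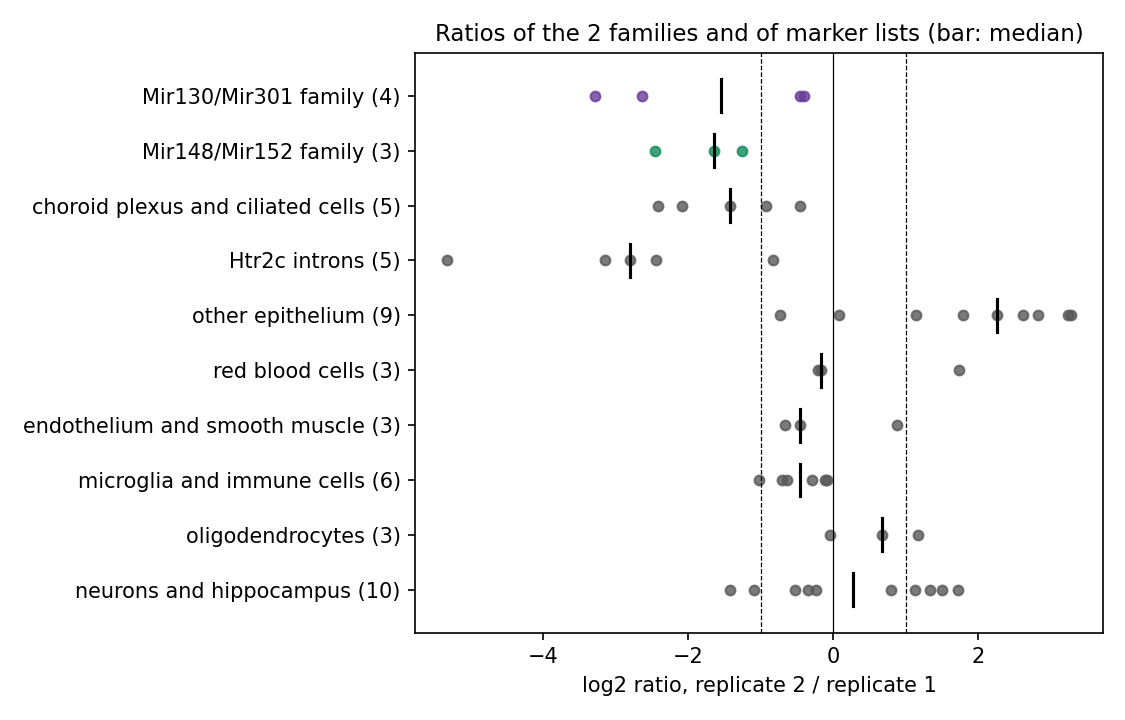
Log2 ratio of replicate 2 to replicate 1 for the genes of both families and of 8 marker lists, 1 point per tested gene with the number in brackets, a black bar for the median and dashed lines at 2-fold. Points of both families and of the choroid plexus, Htr2c and immune lists lie left of 0, and those of other epithelium mostly lie right of it.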

How the data were processed

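The authors deposited 1 table of raw counts per library, with reads per microRNA gene in 3 columns (unstranded and each strand), on mm10 with GENCODE M21 per the text deposited with the tables. Which aligner and counter made them is not given in the sources used here. Sense counts are those of the strand with the larger sum. Lines for unmapped, multi-mapping and unassigned reads stayed out of library sizes. Multi-mapping reads were 40.8% of replicate 1 and 37.1% of replicate 2.

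CPM used all counts in microRNA genes. Ratios used TMM in edgeR 4.0.16 under R 4.3.3, without a pseudocount. With 1 group of 2 libraries and members picked by their ratio, no test was run. Intervals are exact Poisson for levels and Clopper-Pearson for shares and ratios, at 95%. The ratio step was tested on simulated Poisson counts with known fold changes. Those counts held no variation between animals or preparations, so the test covers the calculation only. Symbols, positions and hosts came from M21, and sequences from RefSeq. Other work used Python 3.11.15, pandas 2.3.3, scipy 1.17.1 and matplotlib 3.10.9.

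The members, marker lists and rules were chosen with earlier results of these data known. Genes named are the 7 members, same-seed genes, microRNA genes within 10 kb, the leading gene of each marker list and, for each member past 2-fold, the 3 genes nearest in ratio with a mean count of at least 100. Some further genes of the marker lists are named for the direction of their ratios or for low counts. Alternatives were the unstranded column, other denominators, each replicate left out, DESeq2 1.42.0 size factors, total counts, other filters, a pseudocount of 10 and 4-fold.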

Additional observations from a re-analysis of the deposited data

How the results depend on the processing

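The share of the Mir130/Mir301 family, 0.556% of assigned counts, became 0.201% with all reads as the denominator, which by construction are more than the assigned counts. Leaving out each replicate gave 0.424% to 0.688%, and 0.00733% to 0.0278% for the Mir148/Mir152 family. The number of genes past 2-fold between the libraries, 99 of 450, became 311 of 788 with a summed count of at least 1, 52 of 273 with at least 200 and 27 of 450 at 4-fold. No ratio of a member changed sign under total counts, DESeq2 size factors, the unstranded column, no filter or a pseudocount of 10. Mir301 ranged from -3.41 to -3.24 and Mir148a from -2.58 to -2.34. Mir301b ranged from -2.76 to -1.35, the latter with the pseudocount, and its counts limit it. No ratio can be formed without either replicate. No paired analysis was possible because there is 1 group.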
